A study of Homo sapiens with 9 samples.

Results

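Glucose enters a cell through facilitative transporters of the SLC2A family, is split to pyruvate by the enzymes of glycolysis, and leaves as lactate through monocarboxylate transporters or enters the mitochondria through the pyruvate carrier. The genes described here are 40 genes of these steps, with the kinases and the dehydrogenase that set pyruvate entry and a few genes of glycogen handling. They were chosen by symbol from the 59452 gene rows of a count table, and all 40 were found. Bulk RNA-seq was measured in MDA-MB-453, a human breast cancer cell line, in 9 libraries, 3 for each of 3 groups, which the study's methods call biological triplicates. The labels call the line triple-negative. Attached vehicle cells grew on standard plastic with DMSO. Suspended vehicle cells were kept from attaching by a poly-HEMA coating and also had DMSO, and suspended AT0174 cells had the same coating and 10 μmol/L of AT0174, a dual inhibitor of the tryptophan-degrading enzymes TDO2 and IDO1. All were collected at 48 hours, and no attached culture with AT0174 was analysed here. The labels name no knockdown or overexpression construct for these samples, and the results hold for this 1 line in culture.

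Glycolysis yields ATP without oxygen, and many cancer cells run it at a high rate and export lactate. Its flux is commonly set at glucose uptake, at hexokinase, which traps glucose, at phosphofructokinase, and at pyruvate kinase. Most steps are served by several isozymes of different genes, so the family member that a cell transcribes matters as well as the total. Transcript levels do not measure flux, protein or lactate, none of which was analysed here.

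The libraries held 36649997 to 48019126 estimated counts. Luminal markers were high in all 9 (*GATA3* 903 to 1077 TPM and *ERBB2* 398 to 436 TPM), and *ESR1* and *PGR* stayed at or under 0.306 TPM. *ERBB2* encodes HER2, so of the receptors that the label triple-negative refers to, its RNA was not low. Receptor protein was not measured here. Of 9 markers of immune, endothelial and stromal cells *CD3E*, *DCN* and *LUM* were at 0 counts in every library. The summed level of those 9 was 58.8 to 69.6 TPM in attached, 55.5 to 57.8 TPM in suspended vehicle and 55.3 to 58.0 TPM in suspended AT0174 libraries, nearly all of it *COL1A1* (51.5 to 66.1 TPM). Counts of the mitochondrial genome were 7.56% to 9.32% of the library in attached cells, 4.05% to 4.34% in suspended vehicle cells and 3.73% to 5.51% in suspended AT0174 cells, and the groups of the first comparison did not overlap in it. TPM, the length-corrected abundance of the deposited files, is a share of the whole library, these counts included, so it is used below for levels between genes, and differences between conditions are given on library sizes scaled by the trimmed mean of M-values (CPM, the count relative to that size).

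In attached cells the highest of the 40 were *GAPDH* (3390 ± 184 TPM, SD, n = 3), the aldolase gene *ALDOA* (2567 ± 94.6 TPM), the lactate dehydrogenase gene *LDHA* (2330 ± 119 TPM) and the enolase gene *ENO1* (1372 ± 68.5 TPM). By mean level in attached cells these stood at rank 23, 29, 35 and 71 of all genes. *PKM*, for pyruvate kinase, followed at 809.6 ± 24.7 TPM and *GPI*, for glucose-6-phosphate isomerase, at 682 ± 15.6 TPM, while *HK2* was at 52.8 ± 1.42 TPM and the lactate exporter *SLC16A1* at 6.31 ± 0.154 TPM. Of the 40, 35 had enough counts to be tested and 5 did not. *LDHB*, the other main lactate dehydrogenase gene, and *PDK4*, a pyruvate dehydrogenase kinase, had 0 counts in all 9 libraries, where 3 counts would be 0.0625 to 0.0819 CPM. *SLC2A3*, the neuronal-type glucose transporter, had at most 4 counts, *SLC2A6* at most 2 and *SLC2A12* 2 to 12.

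**Figure D1:**
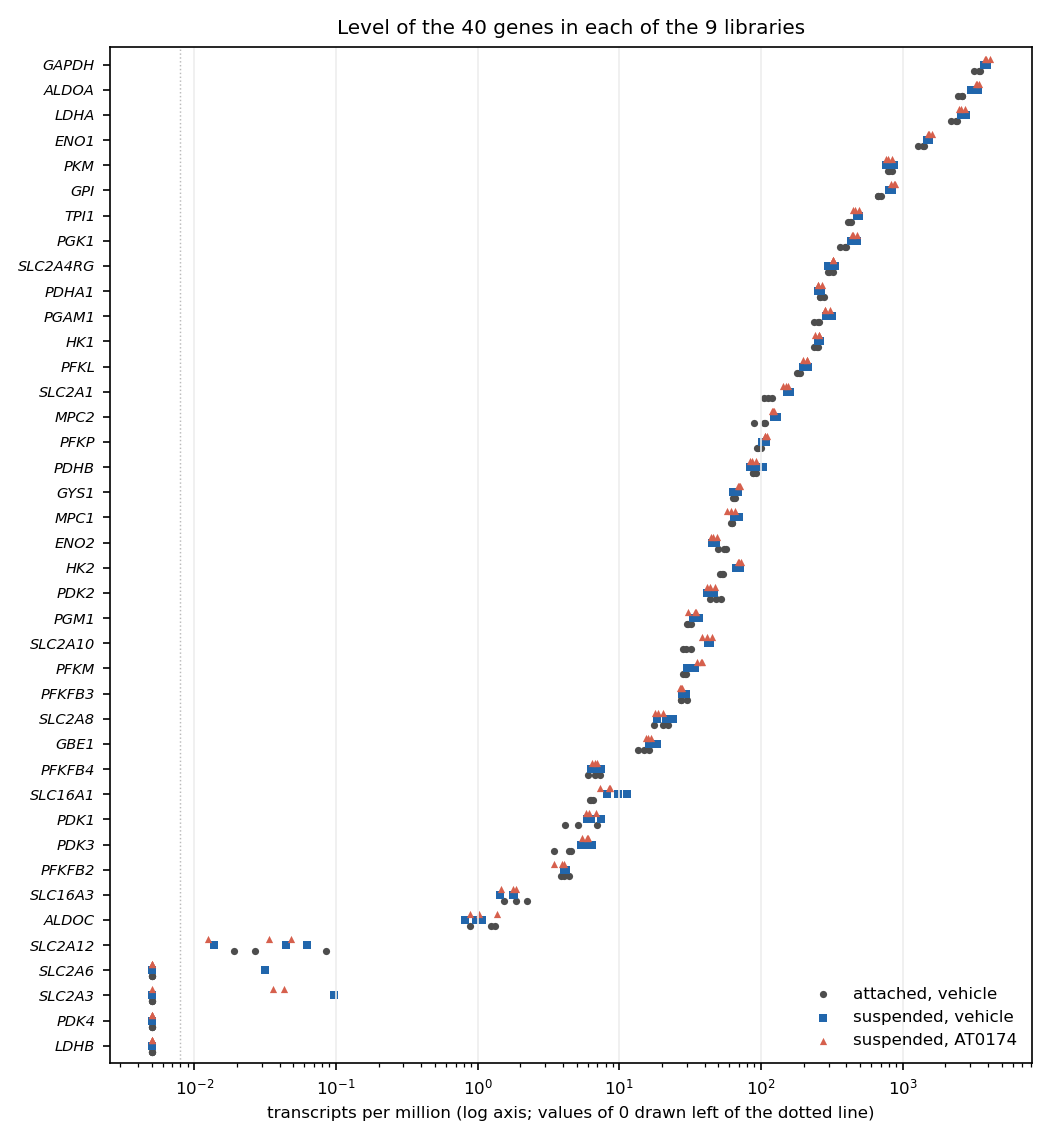
Level of the 40 genes in TPM (log axis), 1 point per library, with genes ordered by their mean in attached cells. *GAPDH*, *ALDOA* and *LDHA* lead in all 9 libraries, and *LDHB* and *PDK4* are at 0 in all of them.

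The 2 splice forms of pyruvate kinase are told apart by 1 exon, which is shown for each. *PKM* lies on chromosome 15 (72199029 to 72231819, minus strand, GRCh38), and the coding exon 9 of the PKM1 form and exon 10 of the PKM2 form are mutually exclusive and 167 bases each. PKM2 is the form that many proliferating cells use and can be held in a less active state, and PKM1 is the form of adult muscle and brain. The exons lie at chr15:72203022-72203188 and chr15:72202454-72202620, and below they are given 5′ to 3′ on the transcribed strand from the GENCODE v44 transcripts, with the 62 positions at which they differ in capitals (62.9% identity).
Exon 9 of PKM1: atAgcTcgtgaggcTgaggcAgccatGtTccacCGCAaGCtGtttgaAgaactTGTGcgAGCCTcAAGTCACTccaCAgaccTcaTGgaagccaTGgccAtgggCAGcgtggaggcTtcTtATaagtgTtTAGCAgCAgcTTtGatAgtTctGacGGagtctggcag
Exon 10 of PKM2: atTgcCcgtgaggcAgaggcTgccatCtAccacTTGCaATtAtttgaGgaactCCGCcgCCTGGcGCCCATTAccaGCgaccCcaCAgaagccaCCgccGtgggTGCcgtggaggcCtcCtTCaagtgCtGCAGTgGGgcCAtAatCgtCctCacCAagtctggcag
The transcripts with exon 10 made up 98.97%, 98.90% and 98.83% of the TPM of both forms in attached cells, 99.17%, 99.16% and 98.93% in suspended vehicle cells and 99.06%, 98.86% and 99.02% in suspended AT0174 cells. Among the transcripts with either exon, all 9 libraries thus held almost only the PKM2 form. Transcripts of *PKM* with neither exon are outside this share. In attached library 2 the PKM2 and PKM1 forms read 601.5 and 6.66 TPM, beside 837.4 TPM for the whole gene. In suspended vehicle library 3 they read 699 and 7.57 TPM, beside 804.4 TPM. The share differed by 0.186 percentage points between suspended and attached cells (exact permutation test, two-sided, p = 0.2) and by −0.107 points between AT0174 and vehicle (p = 0.3). With 3 libraries against 3 such a test cannot give a p under 0.1.

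Of the 3 tested glucose transporters among the 40 genes, 2 rose in suspension. Outside the 40, the glucose transporter gene *SLC2A11* was called lower (log2 fold change −0.67), as given below. *SLC2A9* (−0.19) and *SLC2A13* (0.19) were not called. *SLC2A10* and *SLC2A1*, the widely expressed glucose transporter of red cells and many tumors, were higher in all 3 suspended vehicle libraries than in any attached library. *SLC2A1* read 90.9, 91.3 and 89.0 CPM in the attached, 114, 120.1 and 116 CPM in the suspended vehicle and 128, 117 and 120.0 CPM in the suspended AT0174 libraries. The difference between suspended and attached cells was log2 fold change 0.37 ± 0.037, SE, with adjusted p = 6.21e-05 by edgeR's quasi-likelihood test with Benjamini–Hochberg adjustment, which gives every adjusted p below. *SLC2A10* read 69.2, 65.7 and 63.8 CPM in the attached, 87.8, 91.6 and 89.2 CPM in the suspended vehicle and 93.2, 87.0 and 92.2 CPM in the suspended AT0174 libraries (log2 fold change 0.43 ± 0.041, SE, with adjusted p = 3.33e-05). Neither transporter's groups overlapped between attached and suspended vehicle cells. *SLC2A8*, a mainly intracellular transporter, read 20.8, 21.1 and 20.3 CPM attached and 19.5, 23.7 and 21.7 CPM suspended, with groups that overlapped, and its log2 fold change was 0.06 (adjusted p = 0.575). *SLC2A4RG* encodes a transcription factor named for *SLC2A4* and was well expressed (296 to 333 TPM), and it read 254, 270.2 and 258 CPM attached and 245, 254 and 254 CPM suspended, with groups that overlapped and a log2 fold change of −0.05 (adjusted p = 0.241).

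The 250 bases before the start of *SLC2A1*, *SLC2A10*, *HK2* and *LDHA* are shown. These genes encode transporters of the SLC2A family, a hexokinase and a lactate dehydrogenase, and each was called higher in suspension. Sequences are from the RefSeq promoter table (GRCh38.p14), at chr1:42958869-42959118 on the minus strand, chr20:46709399-46709648 on the plus strand, chr2:74833877-74834126 on the plus strand and chr11:18394313-18394562 on the plus strand, each 5′ to 3′ on the strand of its gene. Capitals mark ACGTG and GCGTG on either strand, the letters of the core of the hypoxia response element. ACGTG is also part of CACGTG, the E-box.
SLC2A1: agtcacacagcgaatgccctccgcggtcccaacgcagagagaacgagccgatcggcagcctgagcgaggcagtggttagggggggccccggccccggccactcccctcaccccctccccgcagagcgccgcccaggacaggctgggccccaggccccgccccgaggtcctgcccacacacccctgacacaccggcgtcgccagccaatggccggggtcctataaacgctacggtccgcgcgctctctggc
SLC2A10: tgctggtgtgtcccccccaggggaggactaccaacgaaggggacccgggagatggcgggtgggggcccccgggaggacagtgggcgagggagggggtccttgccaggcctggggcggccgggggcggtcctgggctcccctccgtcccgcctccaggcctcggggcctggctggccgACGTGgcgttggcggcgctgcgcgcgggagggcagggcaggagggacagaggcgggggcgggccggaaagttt
HK2: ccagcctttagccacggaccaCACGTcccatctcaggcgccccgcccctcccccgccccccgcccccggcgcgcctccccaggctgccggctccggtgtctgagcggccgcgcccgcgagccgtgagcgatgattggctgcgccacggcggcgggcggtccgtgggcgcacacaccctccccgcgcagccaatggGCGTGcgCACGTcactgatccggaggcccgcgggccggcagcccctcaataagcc
LDHA: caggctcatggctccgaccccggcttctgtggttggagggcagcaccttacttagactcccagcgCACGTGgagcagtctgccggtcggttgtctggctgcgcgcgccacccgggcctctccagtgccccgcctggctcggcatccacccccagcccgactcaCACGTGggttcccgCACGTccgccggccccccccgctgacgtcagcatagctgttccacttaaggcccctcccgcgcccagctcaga
*SLC2A1* holds none of these letters in this window. *LDHA* holds ACGTG 5 times over both strands, 4 of them as the strands of 2 CACGTG boxes at −185 and −87 from its start, and *HK2* holds ACGTG 2 times and GCGTG 1 time. *SLC2A10* holds ACGTG 1 time, at −73. Of the 37 members matched in the table by the most upstream start, 12 held ACGTG (32.4%), against 18.6% of 27305 genes' windows of the same length. For GCGTG it was 14 members (37.8%, against 31.9%), for CACGTG 4 (10.8%, against 6.46%), for the GC box GGGCGG 28 (75.7%, against 42.2%) and for TGACNNNGC, the core of the antioxidant response element, 6 (16.2%, against 11.1%). ACGTG stood in 7 of the 11 matched members called higher in suspension, namely *SLC2A10*, *HK2*, *GPI*, *ALDOA*, *PGK1*, *LDHA* and *PDK3*, in 1 of the 2 called lower (*ENO2*) and in 4 of the 20 tested and not called. The other motifs did not stand in a larger share of the members called higher than of those not called, with GCGTG in 3 of the 11 called higher and 10 of the 20 not called, CACGTG in 1 and 3, GGGCGG in 8 and 16, and TGACNNNGC in 0 and 6. *HK2*, *PGK1* and *PDK3*, the members called higher that held GCGTG, also held ACGTG. Of those not called, *PFKL*, *PFKFB3*, *PFKFB4*, *ENO1*, *PDHA1*, *MPC1* and *GYS1* held GCGTG and no ACGTG. With both motifs read as the core, the members called higher and those not called differed less than for ACGTG alone. A match of letters is a description of the window and shows no bound factor. *SLC16A1*, *SLC2A3* and *PFKFB2* were not matched.

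Between suspended and attached cells with vehicle, 14 of the 35 tested members passed an adjusted p of 0.05 (40%, against 21.2% of all 15528 genes tested). Of these, 12 were higher in suspension (34.3%, against 10.4% of all genes) and 2 lower (5.71%, against 10.8%). The 3 libraries of each group did not overlap for 23 of the 35 (65.7%, against 38.1%). The median log2 fold change of the 35 was 0.06, with a range of −0.30 to 0.43, beside −0.00025 over all genes tested. In bulk RNA, a change in the share of a kind of cell and a change in RNA per cell cannot be told apart. The plot of differences shows them by role.

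**Figure D2:**
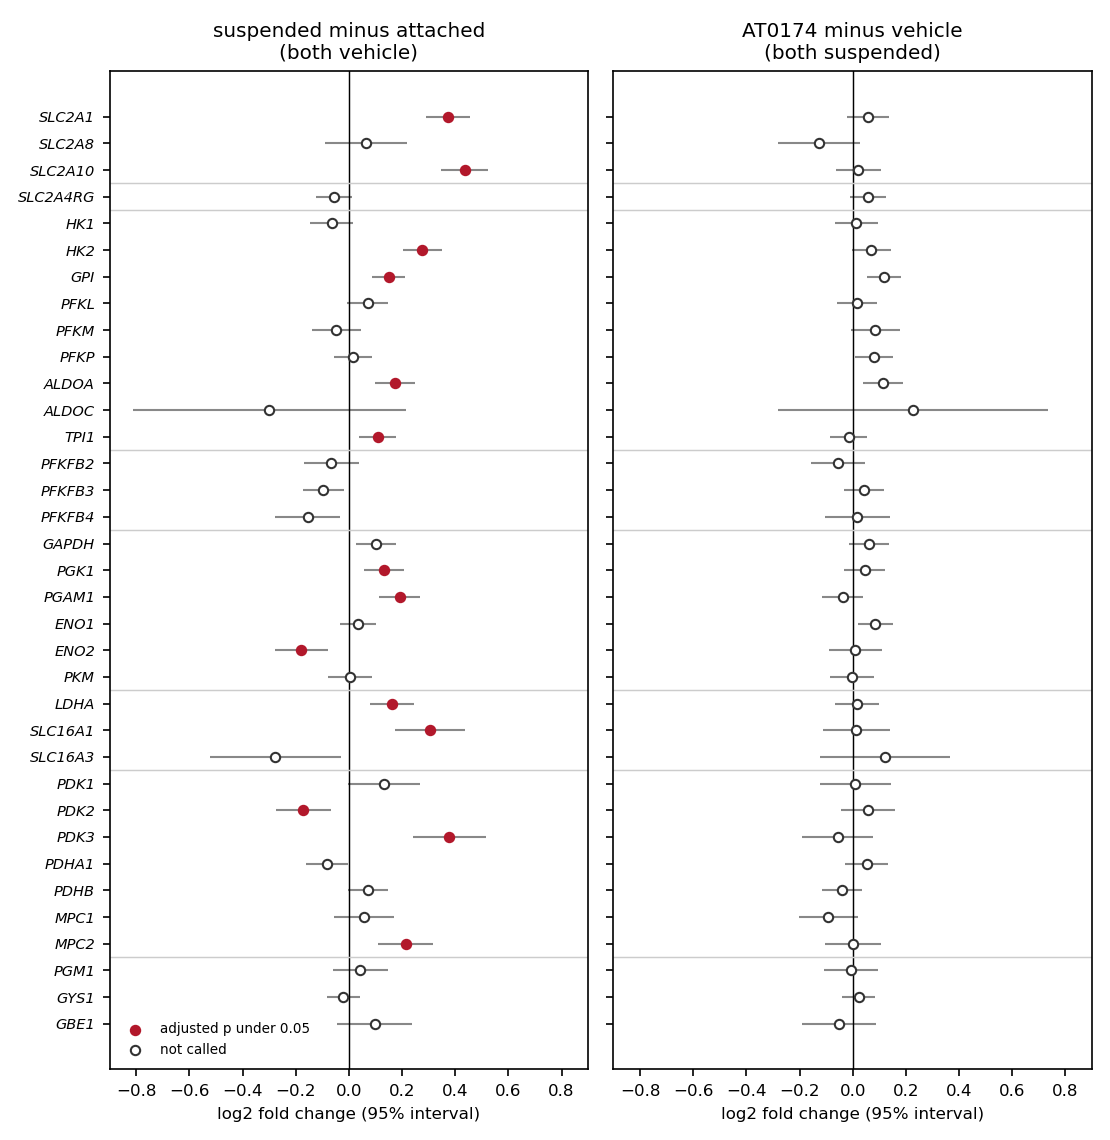
Log2 fold change (point) with its 95% interval (line) of the 35 tested members, grouped by role, for suspended against attached cells (left) and AT0174 against vehicle in suspension (right). Filled points passed an adjusted p of 0.05, which 14 members did on the left and 0 on the right.

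In upper glycolysis, 4 of 9 tested members rose and none fell. *HK2*, the inducible hexokinase, rose most. *HK2* read 208, 214 and 208 CPM in the attached, 262, 259 and 243 CPM in the suspended vehicle and 271, 268 and 263 CPM in the suspended AT0174 libraries (log2 fold change 0.28 ± 0.034, SE, with adjusted p = 0.000296). *HK1*, the constitutive hexokinase, read 613, 625 and 598 CPM attached and 615, 576 and 565 CPM suspended, with groups that overlapped (−0.06, adjusted p = 0.25). *GPI* read 670.0, 696 and 665 CPM in the attached, 740.5, 750.3 and 762 CPM in the suspended vehicle and 823, 813 and 808 CPM in the suspended AT0174 libraries (log2 fold change 0.15 ± 0.029, SE, with adjusted p = 0.00413), and *GPI* turns glucose 6-phosphate into fructose 6-phosphate. *ALDOA* read 2063, 2110 and 2021 CPM in the attached, 2248, 2293 and 2450 CPM in the suspended vehicle and 2554, 2498 and 2505 CPM in the suspended AT0174 libraries (log2 fold change 0.17 ± 0.035, SE, with adjusted p = 0.00475). *ALDOA* splits the 6-carbon sugar, and it was the most abundant member that rose. *TPI1*, which interconverts the triose phosphates, rose by the smallest amount of those called. *TPI1* read 333, 331 and 316 CPM in the attached, 354, 351 and 352 CPM in the suspended vehicle and 357, 350.5 and 338 CPM in the suspended AT0174 libraries (log2 fold change 0.11 ± 0.032, SE, with adjusted p = 0.031). The 3 phosphofructokinase genes, which set the committed step, did not pass. *PFKL*, of liver type, read 342, 346 and 343 CPM attached and 351, 371 and 360.1 CPM suspended (0.07, adjusted p = 0.179), *PFKP*, of platelet type, 164, 176 and 169 CPM and 170.1, 169 and 175 CPM (0.01, adjusted p = 0.797), and *PFKM*, of muscle type, 47.5, 44.9 and 47.0 CPM and 45.8, 46.7 and 42.6 CPM (−0.05, adjusted p = 0.483). The groups of *PFKL* did not overlap, and those of the other two did. *ALDOC*, at 29 to 47 counts a library, read 1.02, 1.30 and 0.824 CPM attached and 0.749, 0.861 and 0.933 CPM suspended, with groups that overlapped, and was not called (−0.30, adjusted p = 0.408).

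The 3 genes that control fructose 2,6-bisphosphate, the allosteric activator of phosphofructokinase, gave values below 0 and none was called. *PFKFB3*, the form with the strongest kinase activity, read 67.6, 64.2 and 68.4 CPM attached and 61.9, 62.7 and 62.8 CPM suspended. Its groups did not overlap between the conditions, and its log2 fold change was −0.10 (adjusted p = 0.0698). *PFKFB4* gave −0.16 (adjusted p = 0.0704) and *PFKFB2* −0.07 (adjusted p = 0.36), and the groups of these genes did not overlap either.

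In lower glycolysis, 2 of 6 rose and 1 fell. *PGAM1*, for phosphoglycerate mutase, rose most. *PGAM1* read 302, 301 and 288 CPM in the attached, 327, 344 and 346 CPM in the suspended vehicle and 342, 329 and 319 CPM in the suspended AT0174 libraries (log2 fold change 0.19 ± 0.036, SE, with adjusted p = 0.00341). *PGK1*, the first enzyme of the pathway to make ATP, rose by less. *PGK1* read 549.7, 551 and 526 CPM in the attached, 572, 596 and 615 CPM in the suspended vehicle and 632, 599.9 and 608 CPM in the suspended AT0174 libraries (log2 fold change 0.13 ± 0.035, SE, with adjusted p = 0.0192). *ENO2*, the enolase named for neurons, fell. *ENO2* read 61.7, 58.8 and 64.4 CPM in the attached, 53.9, 53.5 and 56.0 CPM in the suspended vehicle and 52.5, 57.8 and 54.3 CPM in the suspended AT0174 libraries (log2 fold change −0.18 ± 0.046, SE, with adjusted p = 0.0169). *GAPDH* was not called, with 2700, 2771 and 2562 CPM attached and 2811, 2898 and 2908 CPM suspended, groups that did not overlap and a log2 fold change of 0.10 (adjusted p = 0.0572). DESeq2 (adjusted p = 0.0209) and limma-voom (adjusted p = 0.0403) did call *GAPDH*. *ENO1*, the main enolase, read 1602, 1595 and 1511 CPM attached and 1602, 1605 and 1613 CPM suspended and overlapped between the groups (0.03, adjusted p = 0.481). *PKM* overlapped too, at 1032, 1053 and 1051 CPM attached and 1091, 992 and 1065 CPM suspended, and the 95% interval of its log2 fold change was −0.08 to 0.09. The 15 enzyme genes from hexokinase to pyruvate kinase summed to 10722, 10849 and 10052 TPM in attached, 11890, 12185 and 12528 TPM in suspended vehicle and 12905, 12109 and 12392 TPM in suspended AT0174 libraries. With the mitochondrial genome's rows left out they were 1.29%, 1.30% and 1.25% of TPM in attached cells, 1.32%, 1.35% and 1.39% in suspended vehicle cells and 1.41%, 1.39% and 1.39% in suspended AT0174 cells, so the attached libraries remained lowest on that scale too.

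**Figure D3:**
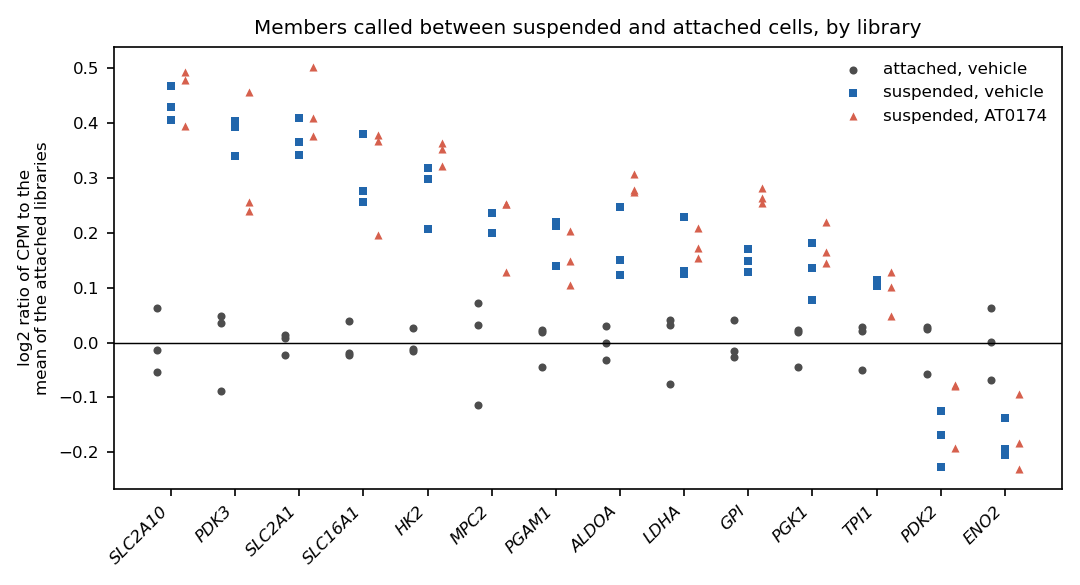
Log2 ratio of each library's CPM to the mean of the attached libraries, for the 14 members called between suspended and attached vehicle cells, ordered by log2 fold change. In each of the 14 the 3 suspended vehicle points lie apart from the 3 attached points, from *SLC2A10* at the top to *PDK2* and *ENO2*, which lie below 0.

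Of the 3 tested genes of lactate handling, 2 rose and none fell. *LDHA*, which makes lactate from pyruvate, rose. *LDHA* read 1321, 1313 and 1219 CPM in the attached, 1406, 1400 and 1505 CPM in the suspended vehicle and 1429, 1447 and 1483 CPM in the suspended AT0174 libraries (log2 fold change 0.16 ± 0.039, SE, with adjusted p = 0.0118). With *LDHB* at 0 counts, *LDHA* held 100% of the TPM of these 2 genes in all 9 libraries. *SLC16A1*, the proton-linked monocarboxylate transporter found in most tissues, rose too. *SLC16A1* read 16.7, 16.0 and 16.0 CPM in the attached, 21.1, 19.7 and 19.4 CPM in the suspended vehicle and 21.0, 18.6 and 21.1 CPM in the suspended AT0174 libraries (log2 fold change 0.30 ± 0.06, SE, with adjusted p = 0.00471). *SLC16A3*, the low-affinity lactate exporter of glycolytic cells, pointed the other way at 3.48, 3.60 and 3.89 CPM attached and 2.84, 3.06 and 3.14 CPM suspended, with groups that did not overlap, and it was not called (−0.28, adjusted p = 0.104). *SLC16A1* made up 80.9%, 76.8% and 73.7% of the TPM of the pair in attached cells, 88.8%, 84.6% and 82.0% in suspended vehicle cells and 82.7%, 83.4% and 81.9% in suspended AT0174 cells.

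At the entry of pyruvate into the mitochondria, 2 of 7 tested members rose and 1 fell. *PDK3*, 1 of the kinases that switch off pyruvate dehydrogenase, rose. *PDK3* read 18.7, 17.1 and 18.9 CPM in the attached, 24.1, 23.1 and 23.9 CPM in the suspended vehicle and 25.0, 21.5 and 21.8 CPM in the suspended AT0174 libraries (log2 fold change 0.38 ± 0.064, SE, with adjusted p = 0.00198). *PDK2*, another such kinase, fell. *PDK2* read 37.7, 37.8 and 35.6 CPM in the attached, 31.6, 33.96 and 32.9 CPM in the suspended vehicle and 35.0, 32.4 and 35.1 CPM in the suspended AT0174 libraries (log2 fold change −0.17 ± 0.047, SE, with adjusted p = 0.0231). *PDK2* was still the most abundant of the family per length. *MPC2*, 1 subunit of the pyruvate carrier, rose. *MPC2* read 108, 105 and 94.8 CPM in the attached, 118, 121 and 118 CPM in the suspended vehicle and 122, 122 and 112 CPM in the suspended AT0174 libraries (log2 fold change 0.21 ± 0.048, SE, with adjusted p = 0.00927). Its partner *MPC1* was not called (0.06, adjusted p = 0.472), nor were *PDK1* (0.13, adjusted p = 0.161, with 10.8, 11.5 and 11.0 CPM attached and 12.2, 12.6 and 11.8 CPM suspended), *PDHA1* (−0.08, adjusted p = 0.135, with 115, 112 and 115 CPM attached and 112, 105 and 107 CPM suspended) and *PDHB* (0.07, adjusted p = 0.17), the last 2 being subunits of the dehydrogenase. Of the 3 glycogen genes none was called: *PGM1* 0.04 (adjusted p = 0.571), *GYS1*, for glycogen synthase, −0.02 (adjusted p = 0.643) and *GBE1*, for the branching enzyme, 0.10 (adjusted p = 0.321). *GYS1*, the member of this group with the most counts, read 134, 136 and 138 CPM attached and 134, 133 and 135 CPM suspended, with groups that overlapped.

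Of the 14 calls, 5 did not hold when 1 library was left out. *TPI1* lost its call without attached library 3 (0.08, adjusted p = 0.108) and without suspended vehicle library 1 (0.11, adjusted p = 0.0616), 2 (0.11, adjusted p = 0.0698) or 3 (0.11, adjusted p = 0.0715). *PGK1* lost it without attached library 3 (0.11, adjusted p = 0.0697) or suspended vehicle library 2 (0.13, adjusted p = 0.0571) or 3 (0.11, adjusted p = 0.0750), and *LDHA* without suspended vehicle library 3 (0.13, adjusted p = 0.0545). *ENO2* lost it without attached library 3 (−0.15, adjusted p = 0.0717) or suspended vehicle library 1 (−0.17, adjusted p = 0.0526) or 2 (−0.16, adjusted p = 0.0727). *PDK2* lost it without attached library 1 (−0.16, adjusted p = 0.0712) or 2 (−0.16, adjusted p = 0.0731) or suspended vehicle library 1 (−0.14, adjusted p = 0.0823) or 3 (−0.17, adjusted p = 0.0626). The other 9, *SLC2A1*, *SLC2A10*, *HK2*, *GPI*, *ALDOA*, *PGAM1*, *PDK3*, *SLC16A1* and *MPC2*, kept theirs in all 9 such fits. With counts rebuilt from TPM, *TPI1* (adjusted p = 0.156), *PGK1* (adjusted p = 0.0643), *LDHA* (adjusted p = 0.17), *PDK2* (adjusted p = 0.0671) and *PDK3* (adjusted p = 0.088) were not called, and the log2 fold changes of *SLC16A1* (0.54, adjusted p = 0.0347) and *ENO2* (−0.31, adjusted p = 0.0307) were over 1.5 times as large. The mitochondrial share moved with the culture condition, and with those rows left out of the counts 15 members were called, the same 14 and *GAPDH* (0.10, adjusted p = 0.0385).

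Shares within isozyme families do not depend on library size and were compared library by library. *HK2* made up 17.5%, 17.6% and 17.8% of hexokinase TPM in attached cells, 21.1%, 21.8% and 21.0% in suspended vehicle cells and 22.1%, 22.4% and 21.2% in suspended AT0174 cells. The suspended vehicle libraries lay 3.69 percentage points above the attached ones on average, and the groups did not overlap. *ENO2* was 3.71%, 3.45% and 4.23% of enolase TPM in attached and 2.98%, 2.86% and 3.05% in suspended vehicle cells. Among the kinases *PDK2* held 83.4%, 83.4% and 83.5% in attached against 76.0%, 78.9% and 79.0% in suspended vehicle cells. *PDK3* held 7.85%, 5.54% and 8.49% against 10.4%, 9.68% and 10.98%, and neither pair of groups overlapped. Among the phosphofructokinase genes *PFKL* held 59.9%, 60.9% and 60.3% in suspended vehicle against 59.1%, 59.5% and 57.6% in suspended AT0174 cells, and *PFKM* held 9.19%, 9.73% and 8.69% against 10.7%, 10.5% and 10.3%. These were the 2 shares without overlap between AT0174 and vehicle, at −1.62 and 1.31 percentage points (exact permutation test, two-sided, p = 0.1 each). *ALDOA* was over 99.9% of its pair with *ALDOC* in every library. Of 17 shares compared, 7 did not overlap between suspended and attached cells and 2 between AT0174 and vehicle. Among all genes tested, the CPM of the groups did not overlap for 38.1% and 15.4%, respectively. Shares within a family depend on each other, and the 2 for AT0174 are of the same family. Exact two-sided permutation tests gave no p under 0.1, the smallest that 3 against 3 libraries allow (Benjamini–Hochberg adjusted 0.243 and 0.85).

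**Figure D4:**
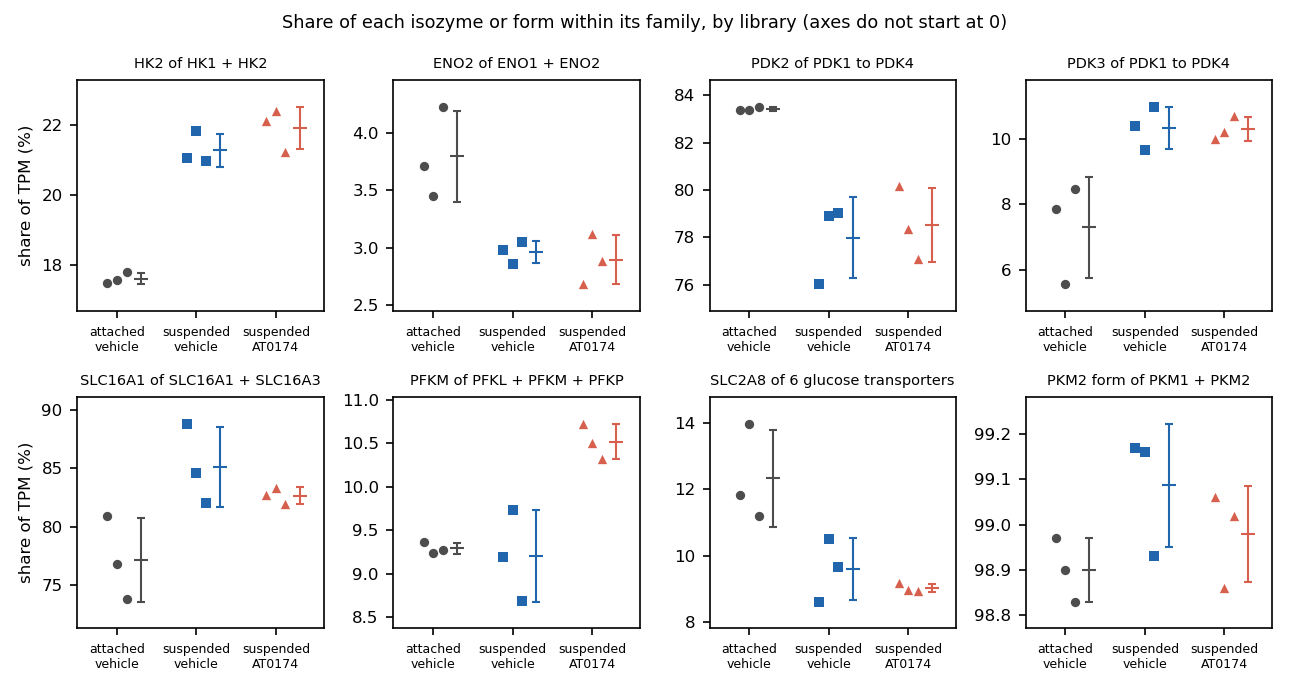
Share of TPM within its family for 8 isozymes or forms, 1 point per library, with mean ± SD beside each group of 3; the vertical axes do not start at 0. The *HK2* share is 17.5% to 17.8% in attached and 21.0% to 22.4% in suspended libraries, and the PKM2 share stays between 98.8% and 99.2%.

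Whether the inhibitor changed these genes in suspension was read from the suspended libraries with AT0174 and with vehicle. By edgeR's quasi-likelihood test 0 of the 35 tested members passed an adjusted p of 0.05, against 0.779% of all genes, and 4 had an unadjusted p under 0.05 (11.4%, against 9.02% of all genes, so about the background). DESeq2 called 1 member and limma-voom 0. The 4 were *GPI*, *ALDOA*, *ENO1* and *PFKP*, all with values above 0. *GPI* went from 740.5, 750.3 and 762 CPM to 823, 813 and 808 CPM, without overlap (log2 fold change 0.12 ± 0.029, SE, 95% interval 0.06 to 0.18, adjusted p = 0.110), and it was the gene DESeq2 called (adjusted p = 0.00664). Over the 19 alternative settings its adjusted p ran from 0.00664 to 0.366. *ALDOA* gave 0.11 (adjusted p = 0.249), *ENO1* 0.09 (adjusted p = 0.371) and *PFKP* 0.08 (adjusted p = 0.471), each without overlap of the groups. Groups did not overlap for 10 of 35 members (28.6%, against 15.4% of all genes). The median log2 fold change of the 35 was 0.02, beside 0.0013 over all genes tested.

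The members that rose most in suspension had intervals around 0 for AT0174. The 95% interval was −0.02 to 0.14 for *SLC2A1*, −0.06 to 0.11 for *SLC2A10*, −0.19 to 0.08 for *PDK3* and −0.11 to 0.14 for *SLC16A1*. For *HK2* it was −0.0032 to 0.14, and its 3 AT0174 libraries read above all 3 vehicle libraries. *LDHA* gave −0.07 to 0.10 and *PKM* −0.09 to 0.08. A p that misses the threshold does not show that AT0174 left these genes as they were, and the intervals give the changes the data allow.

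Against attached vehicle cells, suspended AT0174 cells differed in 14 of 35 members (40%, against 24% of all genes), 13 higher and 1 lower. The attached libraries are the same as in the comparison above, so these calls are not independent of it. *SLC2A10* gave 0.46 (adjusted p = 1.54e-05) and *SLC2A1* 0.43 (adjusted p = 1.28e-05). *HK2* gave 0.35 (adjusted p = 3.59e-05), *ALDOA* 0.29 (adjusted p = 0.000182) and *GPI* 0.27 (adjusted p = 7.72e-05). Beside the 12 others, *GAPDH* (0.16, adjusted p = 0.00559) and *ENO1* (0.12, adjusted p = 0.0147) were called here, at 3095, 2976 and 2925 CPM and 1740, 1698 and 1675 CPM in the AT0174 libraries, while *TPI1* (0.09, adjusted p = 0.0508) and *PDK2* (−0.11, adjusted p = 0.0979) were not. DESeq2 (adjusted p = 0.0315) and limma-voom (adjusted p = 0.0437) called *TPI1* here. *ENO1* lost its call without AT0174 library 1 (0.10, adjusted p = 0.0581), and *ENO2*, at −0.17 (adjusted p = 0.0189), lost it without attached library 3 (−0.14, adjusted p = 0.0803) or AT0174 library 1 (−0.14, adjusted p = 0.0894) or 3 (−0.16, adjusted p = 0.0562). With counts rebuilt from TPM, *LDHA* (0.11, adjusted p = 0.177), *PDK3* (0.42, adjusted p = 0.0623) and *SLC16A1* (0.31, adjusted p = 0.149) were not called, *PFKM* was (0.30, adjusted p = 0.0164), and *ENO2* gave −0.27 (adjusted p = 0.0358).

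Other genes of the same pathways, not among the 40, numbered 66, of which 39 were tested. In suspension 16 of the 39 passed (41%, against 21.2% of all genes), 8 higher and 8 lower. That split rested on the counts used, since counts rebuilt from TPM gave 7, of which 1 was higher and 6 were lower. Log2 fold changes are given in parentheses for 5 of the higher and 6 of the lower, which had adjusted p = 0.000968 to 0.028. Higher were *ARRDC4*, an arrestin relative of *TXNIP* (0.37), *EMB*, a chaperone of monocarboxylate transporters (0.24), the glycerol 3-phosphate gene *GPD1L* (0.22), *PCK2*, the mitochondrial phosphoenolpyruvate carboxykinase (0.20), and *PDHX*, a part of the dehydrogenase complex (0.16). Lower were the glucose transporter gene *SLC2A11* (−0.67), the muscle enolase *ENO3* (−0.48) and *FBP1*, which reverses the phosphofructokinase step (−0.44). So were *PHKA2* (−0.36) and *PHKG2* (−0.24), subunits of phosphorylase kinase, and *SLC37A4*, the glucose 6-phosphate carrier (−0.28). The largest rise, of *ARRDC4*, was from 20, 22.4 and 21.1 CPM attached to 26.3, 26.8 and 28.8 CPM suspended, and the largest fall, of *SLC2A11*, from 37.0, 35.6 and 50.1 to 25.8, 24.4 and 26.8 CPM, and neither pair of groups overlapped. Of these 11, *EMB*, *ENO3* and *PCK2* lost their calls without attached library 3 (adjusted p = 0.0966, 0.121 and 0.0606) and without suspended vehicle library 2 (0.0875, 0.115 and 0.0639). *EMB* (0.0850) and *ENO3* (0.0648) also lost them without suspended vehicle library 3, and *PHKG2* without suspended vehicle library 1 (adjusted p = 0.0510). With counts rebuilt from TPM, 6 of the 11 were not called, *SLC2A11* (−0.41, adjusted p = 0.075), *EMB* (0.10, adjusted p = 0.585), *PDHX* (0.10, adjusted p = 0.455), *PCK2* (0.20, adjusted p = 0.0899), *SLC37A4* (−0.11, adjusted p = 0.198) and *GPD1L* (0.10, adjusted p = 0.227), and *PHKA2* fell further (−0.62, adjusted p = 0.0227).

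With AT0174, 1 of the 39 passed, *TXNIP*, whose protein curbs glucose uptake by removing transporters from the cell surface. It read 189, 196 and 186 CPM in attached, 180.5, 188 and 204 CPM in suspended vehicle and 162, 164 and 163 CPM in suspended AT0174 libraries, and all 3 AT0174 values were below every vehicle value. The log2 fold change with AT0174 was −0.23 ± 0.042 (SE, adjusted p = 0.0235). *TXNIP* did not differ beyond its spread between suspended and attached vehicle cells (0.0012, adjusted p = 0.988). Its call was lost without suspended vehicle library 2 (adjusted p = 0.0611) or 3 (0.0735) and without AT0174 library 1 (0.0954), 2 (0.0763) or 3 (0.0946), and with counts rebuilt from TPM (adjusted p = 0.213).

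Several of the members are known targets of the hypoxia-inducible factors, so 12 target genes outside glycolysis were read beside them. All 12 were tested, and 3 passed in suspension (25%, against 21.2% of all genes, so near that share). All 3 were higher (25%, against 10.4% of all genes), *NDRG1* (0.99, adjusted p = 0.00631), *EGLN3* (0.25, adjusted p = 0.00209) and *BNIP3* (0.23, adjusted p = 0.00501). With counts rebuilt from TPM *NDRG1* was not called (adjusted p = 0.0612). *CA9*, *ANKRD37*, *ADM*, *P4HA1*, *EGLN1*, *KDM3A*, *INSIG2*, *MXI1* and *VEGFA* were not called, with log2 fold changes of −0.15 to 1.16, and *CA9* had at most 20 counts in a library. With AT0174 none of the 12 was called by edgeR (1, or 8.33%, at an unadjusted p under 0.05, against 9.02% of all genes), DESeq2 or limma-voom. Oxygen was not measured here.

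Processed pseudogenes can take reads from several of these genes. Rows named as pseudogenes held 2.15% of the summed reads for *LDHA* (6 rows), 0.471% for *PGAM1*, 0.404% for *TPI1* and 0.0952% for *GAPDH* (65 rows). Adding them to their parent gene left the same count of 14 members called in suspension.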

How the data were processed

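mRNA libraries were made from total RNA of 9 samples, 3 per group, biological triplicates per the study's methods. The authors trimmed reads with cutadapt 3.4 and Trim Galore 0.6.7 after bcl2fastq 2.20.0.422, aligned them with STAR 2.7.9a to GRCh38 and quantified them with Salmon 1.10.1. The authors' deposited gene table holds estimated counts, and their deposited transcript files hold estimated counts and TPM, normalized to length and library. Effective transcript lengths in those deposited files were not used. The transcript counts summed by gene were checked against the gene table. The kit named in the labels and in the study's methods differ, so strand was not assumed.

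Estimated counts were rounded and tested in R 4.3.3 with edgeR 4.0.16 (its default filter on low counts, TMM scaling, quasi-likelihood test, all 9 libraries in 1 fit, Benjamini–Hochberg adjustment over 15528 genes, threshold 0.05), which was tested on simulated data. There, in most simulated sets, more of its calls were false than the threshold allows, so an adjusted p just under the threshold is weak evidence. DESeq2 1.42.0 and limma-voom (limma 3.58.1) were alternatives, as were other filters and scalings, libraries left out in turn, counts rebuilt from TPM, and pseudogenes summed with their parent. Leaving out the mitochondrial genome's rows was added after seeing the data. Shares came from TPM, with exact permutation tests over libraries in SciPy 1.17.1. Coordinates are from GENCODE v44 (GRCh38) and promoters from RefSeq (GRCh38.p14). Depth was 36649997 to 48019126 estimated counts.

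The 40 genes, the 66 other pathway genes, the 12 hypoxia genes, the markers and the motifs were chosen with earlier results of these data known. Given by library, in the comparisons they were named for, were the members called in a comparison, the isozyme families and the uncalled member with most counts of each role. Of other pathway genes, up to 6 called in each direction in suspension were named with log2 fold changes, and all called with AT0174 by library. Some genes that these rules name are not reported here.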

Additional observations from a re-analysis of the deposited data

How the results depend on the processing

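Called members in suspension numbered 14 to 15 under the other scaling, filter, test and pairing settings, and 9 with counts rebuilt from TPM (8 higher, 1 lower, all among the 14), where 8.37% of all genes passed in place of 21.2%. Leaving out 1 library gave 10 to 15. Other pathway genes called fell from 16 to 7 with counts rebuilt from TPM (1 higher, 6 lower), and ranged from 12 to 16 with 1 library left out. With AT0174, 0 members were called under 18 of 19 settings and 1, *GPI*, by DESeq2. Other pathway genes called with AT0174 numbered 2 by DESeq2 and 2 with no filter on low counts, 0 with counts rebuilt from TPM, and 0 to 1 with 1 library left out. Members called between suspended AT0174 and attached vehicle cells numbered 12 to 16 over all settings and 12 to 15 with 1 library left out. Isozyme shares whose AT0174 and vehicle libraries did not overlap numbered 2, 1 with estimated counts in place of TPM and 2 to 4 with 1 library left out. Same-numbered libraries did not deviate together (correlations −0.0652 to 0.0526, and not every library correlated best with its own number), so the numbers were not taken as pairs. With replicate numbers as a block, 14, 0 and 15 members were called in the 3 comparisons, and 5 shares moved 1 way in all 3 same-numbered differences of AT0174 and vehicle. The block changed no call of a member but that of *TPI1* between suspended AT0174 and attached vehicle cells (adjusted p = 0.0431). The PKM2 share differed by 0.143 to 0.264 points in suspension and by −0.186 to −0.0454 points with AT0174 with 1 library left out. No named gene changed direction while called, and the cause of these differences was not tested. With 3 libraries a group, the smallest called difference of a member in suspension was 0.11 on the log2 scale, *ALDOC* at 29 to 47 counts had a standard error of 0.24, and *SLC2A3*, *SLC2A6*, *SLC2A12*, *LDHB* and *PDK4* could not be compared.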
